A study of Mus musculus with 79 samples.

Results

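Interleukin 10 (IL-10), the chain of genes through which it signals and 2 genes that STAT3 switches on were followed at the RNA level after nerve repair in mice. The 8 genes were Il10, its receptor chains Il10ra and Il10rb, the kinases Jak1 and Tyk2, the transcription factor Stat3, and the STAT3 targets Socs3 and Bcl3. They were picked by symbol out of 23361 genes, and each had a row in all 3 deposited count tables. The study compared a graft of the freshly cut common peroneal nerve onto the tibial stump made immediately with the same graft made after a delay of 8 weeks, during which the tibial stump had no axons. S100β-eGFP mice of both sexes, which carry GFP under the S100β promoter as a label for Schwann cells, were used in every group, and the immediate group had a sham incision at the time when the delayed group was injured. At day 5 and day 14 after repair, about 1000 macrophages and about 1000 GFP-bright cells negative for the other sort markers were sorted from the tissue bridge of single animals, and the distal stump was taken at day 5 only. There were 79 libraries from 32 animals, with macrophages from 9 delayed and 8 immediate animals at day 5 and from 7 and 8 at day 14. The GFP-bright fraction came from 9 delayed and 7 immediate animals at day 5 and from 7 and 8 at day 14, and the stump from 9 and 7. The age of the mice was not given in the sources used here.

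IL-10 is a secreted cytokine that restrains inflammatory gene expression, and macrophages are both a source and a target of it. It binds a receptor made of a ligand-binding chain (Il10ra) and a chain shared with other cytokines of the family (Il10rb), which bring the kinases JAK1 and TYK2 to phosphorylate STAT3. STAT3 then enters the nucleus and switches on genes such as Socs3, which encodes a feedback inhibitor of several STAT3-activating cytokine receptors, and Bcl3, which encodes a nuclear partner of NF-κB. These signals run through protein phosphorylation, so RNA shows how much message each component had and not whether the pathway was active.

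In the GRCm38 build with the GENCODE M21 annotation, Il10 lies on the plus strand of chromosome 1, chr1:131019845-131024974. The gene Il10ra lies at chr9:45253837-45269149 on the minus strand and Il10rb at chr16:91406164-91425834 on the plus strand. The kinase genes Jak1, chr4:101152367-101265282, and Tyk2, chr9:21104068-21131243, are both on the minus strand. Stat3, chr11:100885098-100939540, and Socs3, chr11:117966079-117970047, share chromosome 11, and Bcl3 lies at chr7:19808462-19822770, all on the minus strand. Every value below is for reads over the exons of a gene. Exons of Il10rb share 569 bases with Gm21970 on the same strand, which is 14.9% of its exon length. Exons of Tyk2 and Bcl3 share 8.07% and 6.51% of their length with antisense genes. The sorted-cell libraries were not stated to keep strand, so values of these 3 genes can hold reads of their neighbours.

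Totals ran from 14928748 to 28499405 estimated counts per library for macrophages, 11614940 to 30796825 for the GFP-bright fraction and 3898778 to 9212710 for the stump. Levels of Il10 and the other genes followed here are given in CPM, counts scaled to a common library total, after TMM scaling. TMM scaling corrects each total for composition. CPM values of marker genes, single or summed, were computed without TMM scaling, so they are not on the same scale as those levels. The macrophage label was borne out by Emr1, which encodes F4/80, at 887 to 1544 CPM in every day 5 macrophage library, while S100b and Sox10 had a median of 0 CPM there. The Schwann cell label of the GFP-bright libraries was not. S100b, the gene whose promoter drives the label, had a median of 3.65 CPM at day 5 and 9.88 at day 14, and Sox10 20.3 and 126. Dendritic cell markers stood far higher there, with Flt3 at 416 to 1124 CPM and Ccr7 at 5574 to 9706 CPM at day 5, against medians of 0 and 20.3 CPM in macrophages. These libraries are therefore called the Schwann fraction, after the sort. In 1 immediate library of that fraction at day 14 the summed neutrophil markers reached 8096 CPM, against a median of 29.4 in its group.

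Which of the 8 genes were abundant in macrophages was read per kilobase of exon, the scale on which genes can be compared. Socs3 had the highest level in all 4 macrophage groups and Tyk2 the lowest. At day 5, Socs3 stood at 536 ± 158 CPM per kb after delayed repair (SD, n = 9) and 545 ± 186 after immediate repair (SD, n = 8). Il10 ranked next at 204 ± 81.0 and 409 ± 117 CPM per kb, above Il10rb at 138 ± 10.4 and 141 ± 7.86. In the delayed group the levels of Il10 and Il10rb differed by less than the spread of Il10 between animals. Bcl3, Jak1 and Stat3 followed in that order, between 109 and 113, 69.1 and 73.8, and 57.2 and 60.7 CPM per kb, and the last 2 lay within each other's spread. Il10ra, the ligand-binding chain, was at 15.2 to 16.4 CPM per kb, below its partner chain Il10rb, and Tyk2 at 3.07 to 4.17. At day 14 Il10 ranked 4 of the 8, at 103 ± 29.0 and 105 ± 31.5 CPM per kb, a level within the spread of Il10rb and Bcl3.

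Whether delayed repair changed Il10 in the macrophages of the bridge was asked first at day 5. The mean Il10 level of macrophages was lower after delayed repair, by 0.99 on the log2 scale, but this did not pass the test over all genes, and neither did any difference in the receptor chains, kinases, Stat3, Socs3 or Bcl3. Il10 ran from 138 CPM through a median of 266 to 485 CPM in the 9 delayed libraries and from 213 through 553 to 734 CPM in the 8 immediate libraries. All but 1 of the immediate libraries lay between 475 and 734 CPM, and the exception, replicate 8, had 213 CPM. All 9 delayed libraries were below the immediate mean, and 8 of the 9 were below the second-lowest immediate library, but the ranges of the groups overlapped. The means were 267 ± 106 (SD, n = 9) and 535 ± 153 CPM (SD, n = 8). Macrophage markers summed to 10681 through 12371 to 13777 CPM after delay and 12060 through 13733 to 14667 CPM after immediate repair. Endothelial markers summed to 31.5 through 59.7 to 69.3 CPM and 21.5 through 32.2 to 65.6 CPM, and both that could be tested were positive (median 0.58), neither called. The part of these markers in the Il10 difference was not tested.

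**Figure D1:**
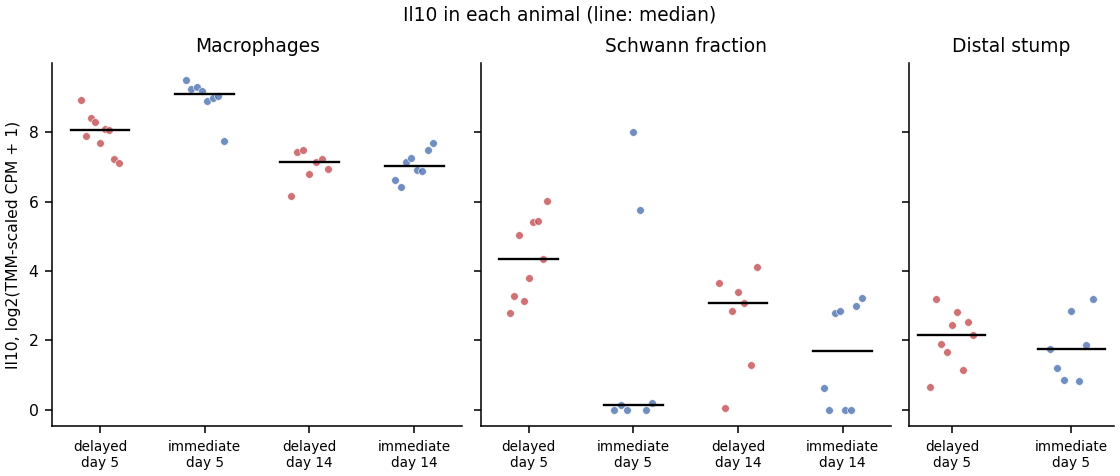
Il10 level in each animal, as log2(TMM CPM + 1), in macrophages, the Schwann fraction and the distal stump, by day and repair group; each point is 1 library and the line is the group median. In macrophages the day 5 medians are 266 CPM after delayed and 553 CPM after immediate repair, both day 14 groups sit lower, and several Schwann fraction libraries lie at 0.

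The fitted log2 fold change of Il10 was -0.99 (SE 0.23, 95% CI -1.48 to -0.51), a 1.99-fold lower level after delay. With edgeR's quasi-likelihood test the adjusted p over all 8409 genes tested was 0.288, so Il10 was not called at 0.05. The call depended on the fit: the adjusted p of Il10 was 0.0162 with DESeq2, 0.0316 with sex as a covariate and 0.00165 with the replicate number as a block, and it ran from 0.00165 to 0.403 over these and the other settings. Animals paired by replicate number share their sex, but the labels tie them to no shared litter or day. The size of the difference moved little, from -1.003 to -0.91. Leaving out any 1 of the 17 libraries gave -1.15 to -0.92, with adjusted p from 0.0600 to 0.630. Of all genes tested in this comparison 0.0357% were called, and 0 of the 8 genes were among them. edgeR gave 435 genes an unadjusted p below 0.05, of these 8 only Il10, and DESeq2 called 17 of 8403 genes, again with only Il10 among the 8. Only 2 of the 8409 genes, 0.0238%, had delayed and immediate libraries that did not overlap, and none of the 8 was among them.

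By sex, Il10 at day 5 was as follows. In delayed males it ran from 239 to 485 CPM and in immediate males from 582 to 734 CPM, so that the 4 and 4 libraries did not overlap. In females the ranges were 138 to 271 CPM over 5 delayed and 213 to 525 CPM over 4 immediate libraries, which overlapped through the single low immediate animal. The level of Il10 was not tested between the sexes, and the higher male values were seen at day 5 only, since the day 14 means were 134 CPM in males and 138 CPM in females after delay and 119 and 156 CPM after immediate repair. In day 5 males 1 of the 8 genes, Il10, had groups apart, where 3.41% of all genes tested did. The repair difference of Il10 itself differed between the sexes by 0.17 on the log2 scale (SE 0.37, 95% CI -0.60 to 0.94), which edgeR did not call (adjusted p = 0.980). For this interaction 0% of 8409 genes were called by edgeR, with 352 at an unadjusted p below 0.05, 1 of the 8 genes among them, and DESeq2 was not run on the interactions with sex.

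The receptor chains did not pass the test between the 2 repair groups at day 5. Il10ra ran from 40.7 through 56.3 to 79.7 CPM after delay and from 23.1 through 52.4 to 79.6 CPM after immediate repair. Il10rb, the least variable of the 8, ran from 474 through 527 to 607 CPM and from 488 through 543 to 571 CPM. Both pairs of ranges overlapped, with 2 immediate libraries below and 1 delayed library above the other group for Il10ra, and 2 delayed libraries below and 1 above for Il10rb. The log2 differences were 0.12 for Il10ra (95% CI -0.30 to 0.54) and -0.02 for Il10rb (95% CI -0.18 to 0.13), so that a change of Il10rb beyond 0.18 lay outside its interval.

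Of the 2 kinases, Jak1 ran from 301 through 476 to 680 CPM after delay and from 349 through 531 to 712 CPM after immediate repair. Tyk2, the lowest of the 8, ran from 13.0 through 29.7 to 47.0 CPM and from 16.0 through 20.9 to 28.6 CPM. For Tyk2, 5 of 9 delayed libraries lay above every immediate library, and 1 lay below all of them. Its log2 difference of 0.45 (SE 0.22, 95% CI -0.01 to 0.90) did not pass the test (adjusted p = 0.931, edgeR), and that of Jak1 was -0.09 (95% CI -0.42 to 0.24). The higher Tyk2 values were those of females, at 29.7 to 47.0 CPM in 5 delayed females against 13.0 to 24.1 CPM in 4 delayed males. In immediate repair, females had 19.5 to 28.6 CPM and males 16.0 to 22.2 CPM.

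Stat3 and its 2 targets did not follow Il10 between the repair groups. Stat3 ran from 375 through 575 to 673 CPM after delay and from 388 through 564 to 802 CPM after immediate repair, a log2 difference of -0.08 (95% CI -0.36 to 0.20). Socs3 ran from 789.6 through 1491 to 2105 CPM and from 1124 through 1328 to 2530 CPM, a difference of -0.02 (95% CI -0.44 to 0.41). Bcl3 ran from 211 through 263 to 364 CPM and from 208 through 263 to 361 CPM, a difference of 0.06 (95% CI -0.21 to 0.33). The medians of Bcl3 were the same to within 1 CPM, and the ranges of all 3 genes overlapped. The intervals of all 3 leave out a difference as low as the -0.99 of Il10, and they allow falls of up to 0.36 for Stat3, 0.44 for Socs3 and 0.21 for Bcl3. Scaled by library size alone, which moves the median of all genes from 0.01 to 0.10, the small differences of Il10rb, Jak1, Stat3 and Socs3 turned positive, at 0.00045 to 0.06.

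**Figure D2:**
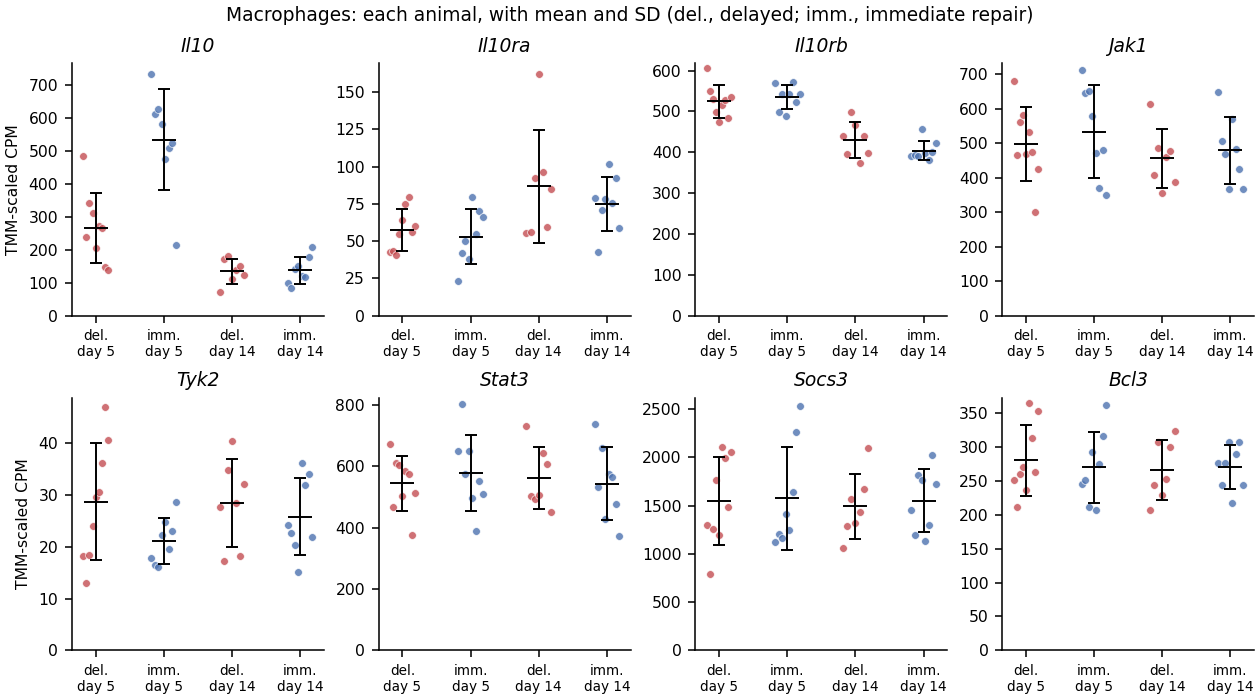
Levels of the 8 genes in macrophages, in TMM CPM, with 1 panel a gene, 1 point a library and bars for the mean ± SD, by day and repair group. Il10 and Il10rb are lower at day 14 than at day 5, and Socs3, Stat3 and Bcl3 have overlapping ranges in all 4 groups.

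Other genes of the pathway were read from lists of known function, beside the 0.0357% of all genes called. Of 15 genes reported to be induced by IL-10 through STAT3, such as Nfil3, Sbno2 and Il4ra, all were tested at day 5 and 0 were called, with a median log2 difference of -0.04 against 0.01 over all genes. The lowest p values in that list belonged to Ddit4, a stress-induced inhibitor of mTOR (-0.68, SE 0.18), and Maff, a small Maf transcription factor (-0.57, SE 0.20), and neither passed. None of 8 other JAK-STAT genes, of 7 negative regulators of the pathway that could be tested, or of 12 regulators of Il10 transcription was called, the last with Nfkb1 at -0.42 (SE 0.13, adjusted p = 0.492, edgeR). Of the other cytokines and receptors that use STAT3, 11 of 17 were tested and 1 was called. Osm, which encodes oncostatin M, a cytokine of the IL-6 family, fell by 0.89 on the log2 scale (SE 0.16, adjusted p = 0.0384, edgeR). Lif at -1.22 (SE 0.35) and Il6 at -1.11 (SE 0.35) belong to the same family and did not pass. The 9 other ligands and receptors of the IL-10 family were all below the level needed for a test in macrophages.

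By day 14 the difference in Il10 was gone from the values. Il10 ran from 70.9 through 140 to 181 CPM after delay and from 85.4 through 131 to 208 CPM after immediate repair, a log2 difference of -0.02 (SE 0.20, 95% CI -0.45 to 0.41). The ranges overlapped apart from 1 delayed library below all immediate ones and 1 immediate library above all delayed ones. The other 7 genes differed by -0.07 to 0.22, and 0 of the 8 were called, as were 0% of the 8589 genes tested by edgeR and 0 by DESeq2. edgeR gave 190 genes an unadjusted p below 0.05, and none of the 8 was among them. As an interaction of repair with day, the log2 difference of Il10, delayed against immediate, was higher at day 14 by 0.98 (SE 0.33, 95% CI 0.31 to 1.65), which did not pass over all genes (adjusted p = 0.9999, edgeR). That interaction called 0.0223% of 8949 genes and none of the 8, and Osm was one of the 2 genes called, at 1.27 (SE 0.24, adjusted p = 0.0328). The day 5 libraries enter this value and the day 5 comparison alike.

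**Figure D3:**
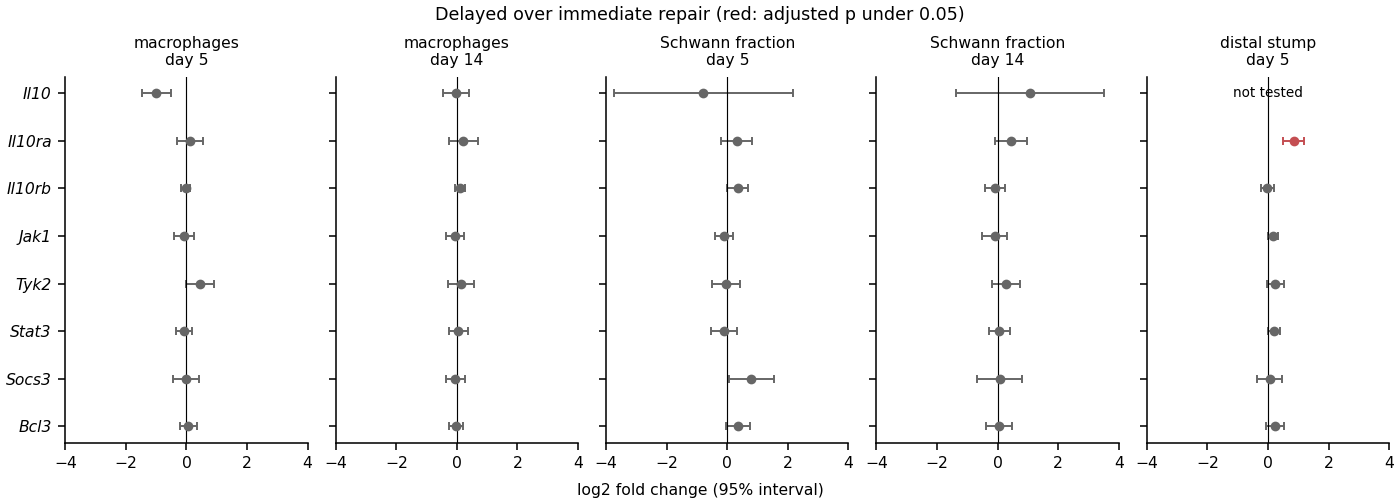
Log2 fold change of each of the 8 genes after delayed against immediate repair in macrophages, the Schwann fraction and the distal stump, with 95% confidence intervals; red marks an adjusted p below 0.05 over all genes (edgeR). In macrophages at day 5 Il10 lies at -0.99 with an interval below 0 and is not called, and Il10ra in the stump at 0.84 is the one called value.

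Between day 5 and day 14, Il10 and Il10rb fell in macrophages of both repair groups. In immediate repair Il10 fell by 1.96 on the log2 scale (SE 0.24, adjusted p = 1.47e-06, edgeR), and every day 14 library, at 85.4 to 208 CPM, lay below every day 5 library, at 213 to 734 CPM. In delayed repair Il10 fell by 0.98 (SE 0.24, adjusted p = 0.00739), and here the 2 days overlapped, with the highest day 14 library at 181 CPM and 2 day 5 libraries at 149 CPM or less. Il10rb ran from 474 to 607 CPM at day 5 and from 374 to 499 CPM at day 14 after delay, and from 488 to 571 and 381 to 456 CPM after immediate repair. It fell by 0.28 (SE 0.07, adjusted p = 0.00762) and by 0.40 (SE 0.07, adjusted p = 1.47e-04), and its days did not overlap in immediate repair. Of 6 macrophage markers, 4 were negative and 2, Csf1r and Fcgr3, positive in both repair groups, with medians of -0.18 after delay and -0.28 after immediate repair. Those called were lower at day 14, Itgam after delay and Cd14, Itgam and Cd68 after immediate repair. The neutrophil marker S100a8 and the endothelial marker Pecam1 were called lower in both. In delayed repair 2 of the 8 genes were called, against 9% of 8949 genes, and none had days that did not overlap, against 1.5% of the genes. In immediate repair 2 of the 8 were called, against 11.8%, and both of them had days apart, against 2.19%.

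Il10ra pointed the other way, with log2 differences of 0.60 (SE 0.22, adjusted p = 0.0880) after delay and 0.50 (SE 0.22, adjusted p = 0.141) after immediate repair, neither called. After delay it was called with sex as a covariate (adjusted p = 0.0256, edgeR) and with the replicate number as a block (adjusted p = 0.0311). One library bore on this value: delayed day 14 replicate 4 had 162 CPM of Il10ra, against 96.6 CPM in the next, and without it the difference was 0.37 (adjusted p = 0.306), a fit chosen after seeing the data. Socs3, the most abundant of the 8, differed by -0.06 (95% CI -0.44 to 0.33) and -0.02 (95% CI -0.41 to 0.36) between the days. Its ranges, 789.6 to 2105 and 1059 to 2098 CPM after delay, lay on top of each other. With library size scaling, sex as a covariate or the replicate number as a block, the value after immediate repair was positive, at 0.13, 0.02 and 0.01. The other 4 genes, Jak1, Tyk2, Stat3 and Bcl3, differed by -0.15 to 0.29 in either repair group and were not called. The 2 comparisons between days share a fit but no libraries.

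Among genes reported to be induced by IL-10, 0 rose and 5 of 15 fell from day 5 to day 14 after delay, and 1 rose and 4 fell after immediate repair, where 9% and 11.8% of all genes were called in either direction. The genes Zfp36, which encodes an RNA-binding protein that speeds decay of inflammatory messages, and Il1r2, a decoy receptor for IL-1, fell in both, with -0.50 (SE 0.11) and -1.91 (SE 0.41) after delay and -0.59 (SE 0.11) and -1.40 (SE 0.39) after immediate repair. The median of the list was -0.18 and -0.48, against 0.00 and 0.01 over all genes. Of 8 negative regulators tested, 2 were called higher and 1 lower after delay, and 1 higher and 1 lower after immediate repair. Among them Socs1 fell by 0.79 (SE 0.18) and 0.83 (SE 0.18), and Cish, another gene of the SOCS family, rose by 1.51 (SE 0.30) and 1.06 (SE 0.30). Of 12 regulators of Il10 transcription, 1 was called higher and 1 lower after delay, and 1 higher and 2 lower after immediate repair. Of 11 tested cytokines and receptors that use STAT3, 1 rose and 3 fell after delay, and 6 fell and none rose after immediate repair. The cytokine genes Lif and Csf3 and the receptor gene Lifr fell in both repair groups and Osm in immediate repair. The one gene that rose after delay, Il11ra1, a receptor chain for IL-11 named here after its values were seen, did so by 0.66 (SE 0.20). Summed dendritic cell markers moved with the day, from 1026 to 4693 CPM in the day 5 macrophage libraries to 6844 to 17824 CPM at day 14, where Cd74 was the main part. Of the 4 of these markers that could be tested, Cd74, H2-Ab1 and Itgax were called higher at day 14 in both repair groups. The remaining one, Ccr7, was negative and not called in both, with medians of 20.3 CPM at day 5 and 6.47 CPM at day 14, and Flt3, too low for a test, had a median of 0 at both days. The part of these marker shifts in the changes of Il10, Il10rb and the lists was not tested.

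The Schwann fraction was compared with macrophages of the same day, on one TMM scale and with the repair group in the fit. It held far less Il10 and less Il10rb and Socs3 than macrophages, and more Stat3 and Tyk2. At day 5 all 8 genes were called, 3 higher and 5 lower, where 65.3% of 10087 genes were. At day 14, 6 of the 8 were called, 2 higher and 4 lower, near the 64.7% of 10596 genes. With library size scaling 6 of the 8 were called at day 5, beside 6565 of 10087 genes. Most genes were called at either day, so the sizes are of more use than the counts. The fractions were sorted from the same bridges, but 4 ng of cDNA went into a macrophage library and 1.5 ng into one of the Schwann fraction, and input and cell type cannot be told apart.

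Il10 in the Schwann fraction ran from 0 through 9.15 to 224 CPM at day 5, against 143 through 360 to 773 CPM in macrophages. At day 14 it ran from 0 through 5.92 to 15.3 CPM against 84.2 through 165 to 242 CPM, with no overlap. The log2 differences were -3.74 (SE 0.76) and -5.07 (SE 0.59), with adjusted p of 6.00e-05 and 6.70e-09 (edgeR). Il10rb was lower at both days without overlap, at 109 to 295 against 493.4 to 648 CPM at day 5 and 102 to 204 against 442 to 601 CPM at day 14, by 1.65 (SE 0.10) and 1.76 (SE 0.09) on the log2 scale. Il10ra, by contrast, was higher in the Schwann fraction at day 5, with medians of 104 and 57.9 CPM (0.87, SE 0.16, adjusted p = 1.42e-05), and not called at day 14, with medians of 97.8 and 93.0 CPM (0.15, 95% CI -0.21 to 0.50). Scaled by library size alone it was called at day 14, at 0.52 (adjusted p = 0.0113). The Il10ra difference between the days was not tested.

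Tyk2 had medians of 96.5 CPM in the Schwann fraction and 24.1 CPM in macrophages at day 5, and its libraries did not overlap. The difference was 1.92 (SE 0.17) at day 5 and 1.31 (SE 0.16) at day 14. Stat3 had medians of 1611 and 593 CPM at day 5 and 1272 and 626 CPM at day 14, differences of 1.50 (SE 0.13) and 0.92 (SE 0.11). Its target Socs3 was the other way round, with medians of 396 and 1487 CPM at day 5 and 561 and 1720 CPM at day 14, differences of -1.70 (SE 0.23) and -1.71 (SE 0.20). At day 14 the Socs3 libraries of the 2 fractions did not overlap. Jak1 at -0.34 (SE 0.12) and -0.37 (SE 0.12) and Bcl3 at -0.37 (SE 0.11) and -0.24 (SE 0.11) differed by less than these, Bcl3 at day 14 without passing (adjusted p = 0.0626, edgeR). With the animal as a block, which pairs the fractions, Bcl3 was called at day 14 as well, at -0.27 (adjusted p = 0.0294). Scaled by library size alone, which moves the median of all genes from 0.05 to 0.30 at day 5 and from 0.11 to 0.48 at day 14, Jak1 and Bcl3 were no longer called at day 5 and were at 0.01 and 0.12 at day 14. Groups that did not overlap were found for 2 of the 8 genes at day 5, Il10rb and Tyk2, against 14.9% of genes, and for 3 at day 14, Il10, Il10rb and Socs3, against 16.4%.

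**Figure D4:**
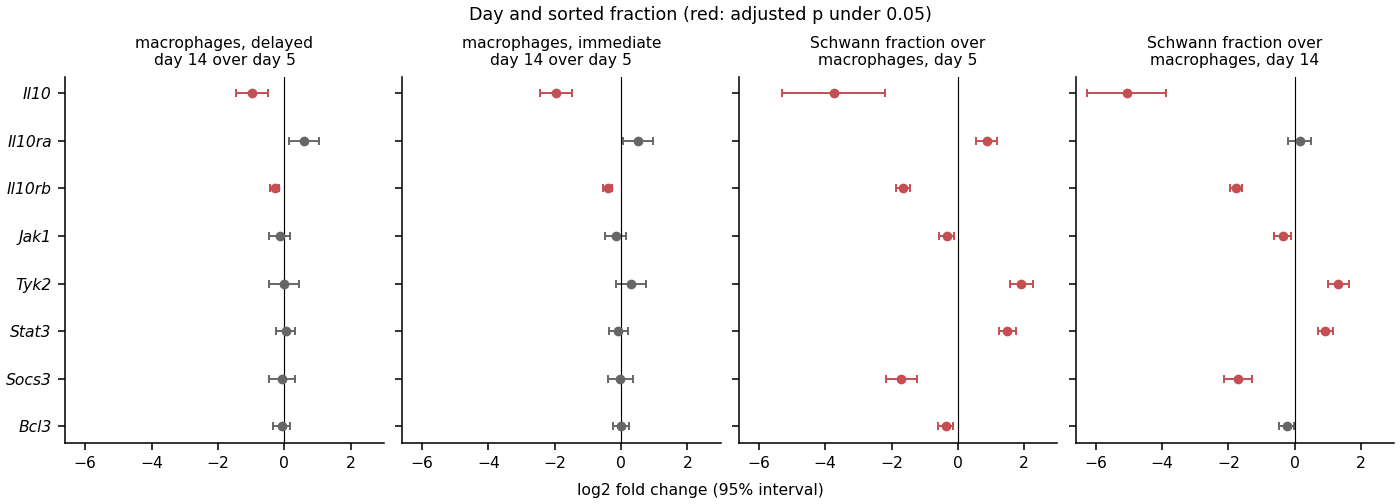
Log2 fold changes of the 8 genes at day 14 against day 5 in macrophages of each repair group, and in the Schwann fraction against macrophages at each day, with 95% confidence intervals; red marks an adjusted p below 0.05 over all genes (edgeR). Il10 and Il10rb are called lower at day 14 in both repair groups, and in the Schwann fraction Stat3 and Tyk2 are called higher and Il10, Il10rb, Jak1 and Socs3 lower at both days.

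Within the Schwann fraction, Il10 was scattered too widely to compare repair groups. At day 5 it ran from 5.92 through 19.3 to 63.7 CPM in the 9 delayed libraries. The 7 immediate libraries held 0 CPM in 3, 0.102 and 0.137 CPM in 2, 52.9 CPM in 1 and 256 CPM in 1, replicate 4. In the 3 libraries at 0 a count of 3 would correspond to 0.0989 to 0.138 CPM. Thus 5 immediate libraries were below every delayed one and 1 was above all of them. The log2 difference was -0.79 (SE 1.40, 95% CI -3.74 to 2.16). It was 1.47 without immediate replicate 4 and 6.10 with the replicate number as a block. Macrophage markers followed the Il10 values only in part. Their sum was 205 through 1518 to 4626 CPM in delayed and 113 through 379 to 1744 CPM in immediate libraries, and it was highest in the group in delayed replicate 9 and in immediate replicate 4, the libraries with the most Il10. Delayed replicate 9 had 63.7 CPM of Il10 at a sum of 4626 CPM, and immediate replicate 4 had 256 CPM at 1744 CPM. Delayed replicate 4 had 7.79 CPM of Il10 at a sum of 1392 CPM. The part of these markers in the Il10 level was not tested.

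For the other genes at day 5, Socs3 ran from 257 through 528 to 1641 CPM after delay and from 218 through 436 to 719 CPM after immediate repair in the Schwann fraction. The high values were those of delayed females, at 528 to 1641 CPM, while delayed males had 257 to 500 CPM. The log2 difference of 0.80 (SE 0.35, 95% CI 0.06 to 1.54) did not pass over all genes (adjusted p = 0.913, edgeR), and it ran from 0.40 to 0.81 over the other settings. Il10rb at 0.35 (SE 0.16) and Bcl3 at 0.36 (SE 0.19) were not called either, nor were Il10ra, Jak1, Tyk2 and Stat3, at -0.11 to 0.31. In the same comparison all 6 macrophage markers were positive (median 1.49) and all 6 Schwann cell markers negative (median -1.77), none called, and the Schwann cell markers summed to medians of 81.7 CPM after delay and 412 CPM after immediate repair. The part of these markers in the differences was not tested. At day 14, Il10 had medians of 7.51 and 3.22 CPM and a difference of 1.07 (SE 1.16, 95% CI -1.38 to 3.52), and Il10ra medians of 120 and 99.5 CPM and a difference of 0.45 (SE 0.25, 95% CI -0.08 to 0.97). The other 6 genes differed by -0.09 to 0.28. At day 5, edgeR called 0% of 9604 genes with 505 at an unadjusted p below 0.05, Il10rb and Socs3 among them, and DESeq2 called 14 genes. At day 14 it called 0% of 10226 genes with 373 at an unadjusted p below 0.05, none of the 8 among them, and DESeq2 called 3. For the repair by day interaction edgeR called 0% of 10923 genes, 524 at an unadjusted p below 0.05 and none of the 8 among them, and DESeq2 called 8. For the repair by sex interaction at day 5 edgeR called 0% of 9604 genes, with 256 at an unadjusted p below 0.05 and none of the 8 among them.

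From day 5 to day 14, Il10rb after delay and Stat3 after immediate repair were called lower in the Schwann fraction. Il10rb ran from 158 to 336 CPM at day 5 and 107 to 187 CPM at day 14 after delay, and fell by 0.63 (SE 0.16, adjusted p = 0.0178, edgeR). After immediate repair its difference was -0.20 (SE 0.16, 95% CI -0.54 to 0.13). Stat3 fell after immediate repair, from a median of 1909 to 1354 CPM, by 0.66 (SE 0.20, adjusted p = 0.0377), and had -0.49 (SE 0.20, adjusted p = 0.130) after delay. That 1 of the 8 genes was called in each group compares with 6.73% of 10923 genes after delay and 7.28% after immediate repair. Neither call was kept with library size scaling, where Il10rb had -0.42 (adjusted p = 0.0653) and Stat3 -0.42 (adjusted p = 0.131). That scaling moved the median of all genes from 0.04 to 0.25 after delay and from 0.04 to 0.23 after immediate repair. With the replicate number as a block Stat3 was also called after delay, at -0.59 (adjusted p = 0.0402). Marker genes moved between the same days after delay. All 6 macrophage markers had negative differences (median -1.01, none called), all 6 Schwann cell markers positive ones (median 2.41, 3 called) and all 5 fibroblast markers positive ones (median 2.33, 1 called). All 6 dendritic cell markers were negative (median -0.34), with Flt3 called. After immediate repair 4 of the 6 macrophage markers and 4 of the 6 Schwann cell markers were positive, none called, and all 4 neutrophil markers tested were positive (median 3.71, 1 called), with the library at 8096 CPM standing apart. Of the 6 dendritic cell markers there, 4 were negative and 2 positive (median -0.33), with Flt3 and Zbtb46 called lower, at -0.97 (SE 0.25) and -0.90 (SE 0.24). The part of these shifts in Il10rb and Stat3 was not tested. Il10 had -1.79 (SE 1.40) and -3.64 (SE 1.48) and was not called. The other 5 genes, Il10ra, Jak1, Tyk2, Socs3 and Bcl3, differed by -0.34 to -0.02 after delay and by -0.61 to 0.39 after immediate repair and were not called.

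In the distal stump at day 5, Il10ra was higher after delayed repair and the rest of the pathway was not called. Il10ra ran from 113 through 183 to 220 CPM in the 9 delayed stumps and from 66.9 through 87.1 to 126 CPM in the 7 immediate stumps. Of the 9 delayed stumps, 8 lay above every immediate one, and all 9 lay above the immediate mean. The difference was 0.84 on the log2 scale (SE 0.16, 95% CI 0.51 to 1.18), a 1.79-fold higher level, with an adjusted p of 0.00103 (edgeR). It was 0.76 to 0.91 with any 1 of the 16 libraries left out and was called each time. In the stump 26.3% of 12229 genes were called, so 1 of the 7 genes that could be tested is not more than genes at large would give. Groups that did not overlap were found for 4.68% of the genes and for none of the 8.

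Il10 itself was too low in the stump for a test, at 0.579 through 3.43 to 8.19 CPM after delay and 0.789 through 2.37 to 8.22 CPM after immediate repair. The shared chain Il10rb was level, with medians of 94.4 and 97.6 CPM and a difference of -0.02 (95% CI -0.23 to 0.19). Jak1 at 0.16 (95% CI -0.01 to 0.32), Tyk2 at 0.24 (95% CI -0.04 to 0.51) and Stat3 at 0.20 (95% CI -0.01 to 0.40) were all slightly positive without passing, with adjusted p from 0.145 to 0.191 (edgeR). Socs3, with medians of 147 and 157 CPM, differed by 0.05 (95% CI -0.36 to 0.46), and Bcl3, with 23.2 and 20.03 CPM, by 0.23 (95% CI -0.06 to 0.52). With the replicate number as a block the value of Socs3 was -0.05. For the repair by sex interaction in the stump edgeR called 0% of 12229 genes, with 272 at an unadjusted p below 0.05 and none of the 8 among them.

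The stump is whole tissue, in which fewer cells of a type and less RNA per cell cannot be told apart. Macrophage markers summed to 1432 through 1696 to 2198 CPM in delayed and 594 through 950.5 to 1887 CPM in immediate stumps, so they moved with Il10ra. Dendritic cell markers were at 566 through 866 to 1128 CPM and 296 through 517 to 885 CPM, endothelial markers at 836 through 1024 to 1240 CPM and 543 through 646 to 752 CPM. T cell markers were at 5.43 through 17.6 to 28.7 CPM and 1.86 through 4.71 to 18.6 CPM, and Schwann cell markers at 68.4 through 199.7 to 575 CPM and 903 through 1715 to 2233 CPM. Il10ra, like several of these markers, is a gene of leukocytes, and the part of cell content in its difference was not tested.

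Around the 8 genes, where 26.3% of all genes were called in either direction, 5 of 8 other JAK-STAT genes rose in the stump and none fell, with Jak2 at 0.61 (SE 0.12), Jak3 at 0.78 (SE 0.19) and Stat2 at 0.71 (SE 0.22) and a median of 0.52 against 0.02 over all genes. Of the regulators of Il10 transcription 5 of 12 rose, among them Prdm1, which encodes the repressor BLIMP-1, at 1.05 (SE 0.17). Of the IL-10-induced genes 3 of 15 rose, Etv3 at 0.70 (SE 0.14), Tnfrsf1b at 0.65 (SE 0.16) and Sbno2 at 0.47 (SE 0.14), and none fell, a share below that of all genes. Of 8 negative regulators 3 rose, with Socs2 at 0.73 (SE 0.10), and Ptpn11 fell by 0.42 (SE 0.07). Among the other cytokines and receptors that use STAT3, 1 of 14 rose and 3 fell, although the list's median was 0.25. The 3 were Clcf1 (-2.25, SE 0.31), Lif (-0.94, SE 0.18) and Cntf (-1.56, SE 0.30), ligands of the IL-6 family. The part of cell content in the differences of these lists was not tested either.

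Whether animals with more Il10 also had more of its target messages was asked over the 32 macrophage libraries, on log2(TMM CPM + 1) after removal of the 4 group means. Pooled over the 4 groups, Socs3 and Bcl3 did not follow Il10, but their relations to it had opposite signs at the 2 days, as given below. Pearson's r was -0.10 for Socs3 (permutation p = 0.615, Spearman's rho 0.0033, p = 0.987), -0.11 for Bcl3 (permutation p = 0.568, rho 0.0084, p = 0.966) and 0.10 for Stat3 (permutation p = 0.602, rho 0.13, p = 0.509). Without the 2 libraries farthest from the median of Il10, r was 0.0073, -0.05 and 0.19. Of these 7 relations 0 were called by limma over 8948 genes, where 0.246% were called and 1195 had an unadjusted p below 0.05, 1 of the 7 among them. Over all genes the quartiles of r were -0.19 and 0.15, and the 3 values lie between them.

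**Figure D5:**
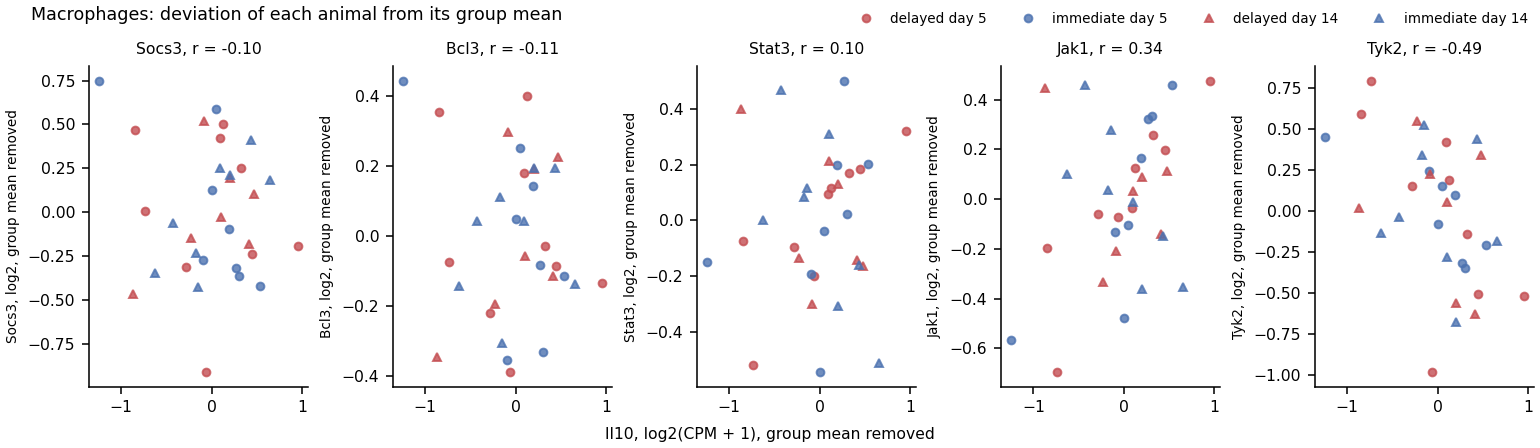
Macrophage Il10 against Socs3, Bcl3, Stat3, Jak1 and Tyk2 over 32 animals, as log2(TMM CPM + 1) with the mean of each repair and day group removed; each point is 1 animal, marked by group. Pooled over the groups, the points show no slope for Socs3 (r = -0.10), Bcl3 (r = -0.11) or Stat3 (r = 0.10), a positive one for Jak1 (r = 0.34) and a negative one for Tyk2 (r = -0.49), none of them called over all genes. Within groups, r of Socs3, Bcl3, Stat3 and Jak1 had opposite signs at day 5 and day 14.

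The strongest relation was with Tyk2, at r = -0.49 (permutation p = 0.00690, rho -0.54, p = 0.00328), and it was -0.50 without the 2 farthest libraries. Its adjusted p over all genes was 0.164 (limma), so it was not called, and it ran from 0.0292 to 0.393 over the other settings. Jak1 had r = 0.34 (permutation p = 0.0723, rho 0.29, p = 0.120, adjusted p = 0.397 by limma), which was 0.21 without immediate day 5 replicate 8, 0.49 without delayed day 14 replicate 1 and 0.18 with library size scaling. Il10rb had r = 0.25 (permutation p = 0.183, rho 0.23, p = 0.221) and Il10ra r = -0.23 (permutation p = 0.228, rho -0.31, p = 0.102). Without the 2 farthest libraries these 3 were 0.38, 0.37 and -0.30. At day 5 the mean of Jak1 was higher and that of Tyk2 lower in males than in females of both repair groups, beside a higher mean of Il10, and with the mean of each sex removed as well r was -0.43 for Tyk2, 0.25 for Jak1 and 0.03 for Socs3.

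Within single groups, each of 7 to 9 animals, Pearson's r of Il10ra, Jak1, Stat3, Socs3 and Bcl3 had opposite signs at the 2 days. Of the 28 relations within groups 8 had an unadjusted exact permutation p below 0.05. In Jak1, r was 0.89 and 0.81 at day 5 after delayed and immediate repair (unadjusted exact permutation p = 0.00130 and 0.000471) and -0.39 and -0.78 at day 14, where Spearman's rho after delay was 0.14. These values do not take sex into account, and at day 5 all 4 immediate males had Jak1 above their group's mean and all 4 females below it. Stat3 had 0.83 and 0.41 at day 5 and -0.55 and -0.69 at day 14. Socs3 ran the other way, with -0.17 and -0.77 at day 5 and 0.47 and 0.76 at day 14, and Bcl3 had -0.23 and -0.63 against 0.62 and 0.25. Tyk2 was negative in all 4 groups, from -0.80 to -0.11. The pooled values near 0 for Stat3, Socs3 and Bcl3 thus join positive and negative groups. Whether the days differ in these relations was not tested.

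The genes most like Il10 over the 32 animals were taken as those with the highest r after removal of the group means. They were Hbegf (r = 0.80, adjusted p = 2.49e-04, limma), which encodes an EGF receptor ligand, Ccdc85b (0.73), G3bp1 (0.73), Acsl3 (0.70) and Nfkbib (0.69). The most opposite were Irf2bp2 (-0.76), N4bp1 (-0.75), Irf2 (-0.74), Pbx2 (-0.68) and Asb8 (-0.65), all but Pbx2 called. The number of genes called over all genes rested on single animals, since the 22 became 2 without immediate day 5 replicate 8, 4 without delayed day 5 replicate 1, 5 without delayed day 5 replicate 8 or 9, 14 without delayed day 5 replicate 4, and 38 to 40 without delayed day 5 replicate 2, immediate day 5 replicate 6 or immediate day 14 replicate 2 or 7. Without delayed day 14 replicate 1 it was 169. It was 3 with library size scaling, 4 without the 2 farthest libraries and 5 with sex means removed. With no group means removed, which lets the repair and day groups enter, 3 of the 7 genes were called beside 2035 of all 8948 genes, Il10rb at r = 0.73, Il10ra at -0.53 and Tyk2 at -0.46.

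Il10 of macrophages was also set against the 8 genes in the other samples of the same animal. Over the 16 animals with a stump library, r ran from -0.37 for Stat3 to 0.45 for Bcl3 (permutation p = 0.0870, rho 0.51, p = 0.0551) among 7 genes. Without the 2 animals farthest in Il10 it was -0.037 for Stat3 and 0.46 for Bcl3, and Il10ra and Il10rb went from -0.20 and -0.30 to 0.098 and 0.0030. Over the 31 animals with a Schwann fraction library, it ran from -0.39 for Bcl3 (permutation p = 0.0391, rho -0.36, p = 0.0591) to 0.31 for Jak1 among 8 genes, and it was -0.0048 for Il10 itself. Without the 2 farthest animals Bcl3 was at -0.37 and Jak1 at 0.28. None of these was called by limma, nor was any other gene (0% of 12229 in the stump and 0% of 10923 in the Schwann fraction), and the adjusted p of Bcl3 was 0.490 and 0.391. Bcl3 thus had opposite signs in the 2 sample types, and that difference was not tested.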

How the data were processed

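The authors trimmed reads with cutadapt 1.8 and aligned them to mm10 with TopHat2 2.1.1, and the submitters' processing notes also name Cuffnorm and Cufflinks 2.2.1. The program that wrote the deposited estimated counts is not given in the sources used here. The authors deposited one table of estimated counts per gene, neither normalized nor filtered, for each sample type. Between 0.951% and 1.18% of values were not whole, and all were rounded. Sorted-cell libraries came from amplified cDNA (SMART-Seq v4), stump libraries from RNA after rRNA removal, with strand kept, so no level was tested between them.

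Genes reaching 5 CPM in 6 or more animals were fitted with edgeR 4.0.16 (TMM scaling, quasi-likelihood test, R 4.3.3), with Benjamini-Hochberg adjustment over all of them at 0.05. SE is the log2 fold change over the square root of F. DESeq2 1.42.0, library size scaling, other filters, sex, the replicate block and leave-one-out fits were alternatives. Correlations used 100000 permutations within groups, 2-sided, and limma 3.58.1 over all genes, with a pseudocount of 1. The fits were tested on simulated data. Animals were separate, but surgery and sequencing batches are not given. The 8 genes were given by value or by range in every comparison but the interactions, where counts were given and, in macrophages, the value of Il10. Other lists, where given, have counts and up to 3 genes with the smallest p, and in the Schwann fraction only marker lists were given. The 5 genes with the highest and lowest r with Il10 were named as well. The 8 genes and all lists were chosen with earlier results of these data known.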

Additional observations from a re-analysis of the deposited data

Results flagged for a closer look

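In 80 sets of 7 to 9 libraries, each of 1 gene in 1 group, the highest and lowest library were compared with the rest by Dixon's criterion, which flags about 1 in 20 groups by chance. Here 2 libraries stood apart. Il10ra in macrophages at day 14 after delayed repair was 162 CPM in replicate 4, against 96.6 CPM in the next library and 55.4 CPM in the lowest of 7. Il10 in the Schwann fraction at day 5 after immediate repair was 256 CPM in replicate 4, against 52.9 CPM in the next library and 0 in the lowest of 7; the macrophage markers of that library summed to 1744 CPM, the highest of its group, and their part in its Il10 level was not tested.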

How the results depend on the processing

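The lower Il10 of day 5 macrophages after delay kept its direction in every setting. It was called, and with it 1 of the 8 genes in place of 0, with DESeq2 (-1.003), with sex as a covariate (-0.98) and with the replicate block (-0.91); leave-one-out values ran from -1.15 to -0.92, none called. Library size scaling turned Il10rb (0.062), Jak1 (0.00045), Stat3 (0.0057) and Socs3 (0.062) there; leaving out 1 library gave -0.15 to 0.0022 for Stat3, -0.089 to 0.11 for Socs3 and -0.0033 to 0.12 for Bcl3. At day 14 macrophage Il10 was 0.0059 with sex as a covariate and -0.11 to 0.088 with a library left out. In the Schwann fraction at day 5, Il10 was 6.10 with the replicate block and -1.07 to 1.47 with a library left out, the highest without immediate replicate 4. Between days there, 0 of the 8 genes were called with library size scaling after delay and 0 after immediate repair, and 2 with the replicate block after delay, in place of 1 each. Of all 10923 genes, these 3 fits called 863, 729 and 740, and the main fits called 735 after delay and 795 after immediate repair. In the stump, leave-one-out gave -0.092 to 0.011 for Il10rb and -0.066 to 0.14 for Socs3, and the replicate block -0.055 for Socs3. Socs3 between days in macrophages of immediate repair was 0.13 with library size scaling, 0.021 with sex as a covariate and 0.015 with the replicate block. Against macrophages at day 14, Jak1 and Bcl3 were 0.011 and 0.12 with library size scaling. With no group means removed 3 of the 7 genes correlated with Il10 were called, beside 2035 of all 8948 genes; Socs3 was 0.0073 without the 2 libraries farthest in Il10; Socs3 was 0.033 and Stat3 -0.015 with sex means removed, and Stat3 was -0.088 with library size scaling. With a library left out r ran from -0.20 to 0.11 for Socs3, -0.24 to 0.086 for Bcl3, -0.0080 to 0.22 for Stat3 and 0.21 to 0.49 for Jak1. The causes were not tested.

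Same-numbered animals of the repair groups share a number and, in every pair, the sex, but the labels tie them to no shared litter or day: 7 of 8 pairs at day 5 and 6 of 7 at day 14 had correlated deviations over 0.1 in macrophages, 3 and 1 of 7 in the Schwann fraction and 1 of 7 in the stump, and 3, 5, 2, 2 and 1 libraries correlated best with their own number. With the animal as the replicate block, 8 and 7 of the 8 genes differed between the fractions at day 5 and day 14, with Bcl3 added at day 14, beside 6501 of 10074 and 6708 of 10596 of all genes. Surgical batch was not given, RNA levels do not report protein or phosphorylation, and Il10 was at 0 in 6 Schwann fraction libraries and below the test's minimum in the stump.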
